A study of Mus musculus with 41 samples.

Results

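Livers labelled IgAkMup NASH were compared with livers labelled B6 HFD control across all genes measured. These were the 6 libraries, 3 in each group, whose column names joined the SS and N tags to the genotypes IgAkMup and B6, out of 41 samples in the series. Of 24511 genes in the deposited table, 12254 had a mean level of at least 3 on the deposited log2 scale over the 24 livers fitted together and were tested. The study measured polyadenylated RNA from livers and liver tumours of mice that were healthy on a high-fat diet (HFD), had non-alcoholic steatohepatitis (NASH) or had hepatocellular carcinoma (HCC), with further healthy livers labelled NC. It asks how steatohepatitis progresses to liver cancer and what part immune cells play.

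Both groups were male C57BL/6 mice kept on HFD. The B6 HFD control livers were labelled as healthy but fatty, and the IgAkMup livers as NASH. The labels give no age and do not spell out what the genotype names IgAkMup, IgAkCLM, MupHe and CD8kMup stand for. Genotype and disease stage change together in this comparison, so their effects on a gene cannot be told apart in it. A pair of other comparisons is given beside it. In IgAkMup NC against B6 NC, healthy livers, the same genotypes differ without HFD. MupHe NASH against IgAkCLM HFD control sets against each other HFD livers of other genotypes that both carry the Tri and N tags. Genotype and stage change together there as well, with Mup in the name only on the NASH side. Each of these groups also held 3 libraries from male C57BL/6 mice. Libraries are called by the last number in their column names, 1, 2 and 3 for B6 HFD control and 2, 3 and 6 for IgAkMup NASH, and values are listed in that order. Levels are the deposited regularised log2 values and differences are in the same unit, with the standard error (SE) of the fit after ±; the table holds no read counts, so the depth behind each value is unknown. The SE and p-values rest on a spread shared over all 24 livers fitted, not on the 6 compared libraries alone. For a gene that varies more in these 6 than in the other livers, the SE can be smaller than these 6 would give. The labels do not say whether the 3 libraries of a group came from separate animals, so the p-values measure the spread between libraries only.

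In steatohepatitis, hepatocytes loaded with fat are injured, and immune cells, matrix-producing stellate cells and duct-like cells accumulate around them. Interferons signal through STAT factors to induce antiviral genes, and their promoters often carry the repeated GAAA element bound by those factors and by interferon regulatory factors. Hepatocytes also differ by position: those around the central vein receive Wnt signals and make glutamine, while those around the portal vein make urea and glucose.

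The promoters of 3 interferon-stimulated genes that rose in IgAkMup NASH are shown because the gene list they belong to had the most called members of the lists examined. The sequences are from RefSeq (GRCm38.p6), run 5′ to 3′ on the gene's strand over 300 bases around an annotated start, and have the matches to the interferon response motif in capitals. The motif searched was GAAA, any pair of bases (NN) and GAAA again, or on the other strand TTTC, NN and TTTC, and overlapping matches are joined. They were chosen, after the values were seen, as called members of the group with a match. Apol9a, on the minus strand at chr15:77411031-77411330, holds 2 overlapping matches, the first starting 59 bases before the start. Oas1g, on the minus strand at chr5:120887564-120887863, holds 2 from 18 bases before its start, and Isg15, on the minus strand at chr4:156200769-156201068, holds 3 from 78 bases before.
Apol9a: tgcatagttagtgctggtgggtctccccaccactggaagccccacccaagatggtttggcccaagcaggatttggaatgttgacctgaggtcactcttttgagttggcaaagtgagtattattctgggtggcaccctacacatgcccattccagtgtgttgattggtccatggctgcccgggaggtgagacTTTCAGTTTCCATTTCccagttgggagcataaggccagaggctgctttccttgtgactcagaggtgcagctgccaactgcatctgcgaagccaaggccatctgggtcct
Oas1g: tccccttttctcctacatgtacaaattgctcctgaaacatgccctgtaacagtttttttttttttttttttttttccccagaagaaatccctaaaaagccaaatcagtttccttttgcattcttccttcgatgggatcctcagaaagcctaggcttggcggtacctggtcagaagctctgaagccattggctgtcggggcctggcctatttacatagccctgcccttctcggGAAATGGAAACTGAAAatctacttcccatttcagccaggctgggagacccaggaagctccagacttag
Isg15: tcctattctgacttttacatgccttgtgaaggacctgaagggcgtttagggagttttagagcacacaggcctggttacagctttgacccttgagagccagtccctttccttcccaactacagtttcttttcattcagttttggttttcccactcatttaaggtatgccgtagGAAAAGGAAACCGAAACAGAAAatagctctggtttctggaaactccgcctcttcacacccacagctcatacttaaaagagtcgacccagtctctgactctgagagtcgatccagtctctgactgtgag
Of the 18 interferon-stimulated genes that rose, 12 had a promoter in the RefSeq table and 8 of these held the motif, against 375 of 9768 tested genes with a promoter (3.84%) and 1131 of 32851 promoters in the table (3.44%). Among all tested members of that group, whether or not they rose, 15 of 23 held it. Over all genes that rose, 23 of 177 promoters held it, and over all that fell 4 of 154. A match describes these letters only. Among the 8 interferon-stimulated genes with the motif, Apol9a and Apol9b have the same matched letters, as do Oas1g and Oas1a. The 8 are thus not all separate cases.

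At an adjusted p under 0.05 (limma, Benjamini-Hochberg over all 12254 genes), 439 genes differed, which is 3.58% of those tested. Of these, 251 were higher (2.05%) and 188 lower (1.53%) in IgAkMup NASH, and 76 belonged to one of the 47 gene lists described below. The share of all tested genes that the lists hold was not worked out, so the 76 is given as a count only. The median difference was 0.74 for genes that rose and -0.49 for genes that fell, in units of log2. A rise above 1 was seen for 73 genes and a fall below -1 for 16. In 428 of the 439 the 3 values of one group lay wholly above the 3 of the other, which held for 18.8% of all tested genes, 8.76% with IgAkMup NASH below. The count depends on the spread the test uses and on 1 library: it was 31 when the tumours shared the estimate of the spread, 158 when the 6 libraries were fitted alone, 849 with library weights and 148 without IgAkMup NASH library 3. Between library pairs, the median absolute difference over genes was 0.152 to 0.197 within B6 HFD control, 0.135 to 0.174 within IgAkMup NASH and 0.166 to 0.209 between the groups. The first principal component of the 24 livers (37.9% of the variance) did not set the groups apart, with scores of 23.3 to 34.7 in B6 HFD control and 19.4 to 25.6 in IgAkMup NASH. On the second (13.1%) they did not overlap, with -14.2 to 4.27 in B6 HFD control and 10.02 to 17.9 in IgAkMup NASH.

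**Figure D1:**
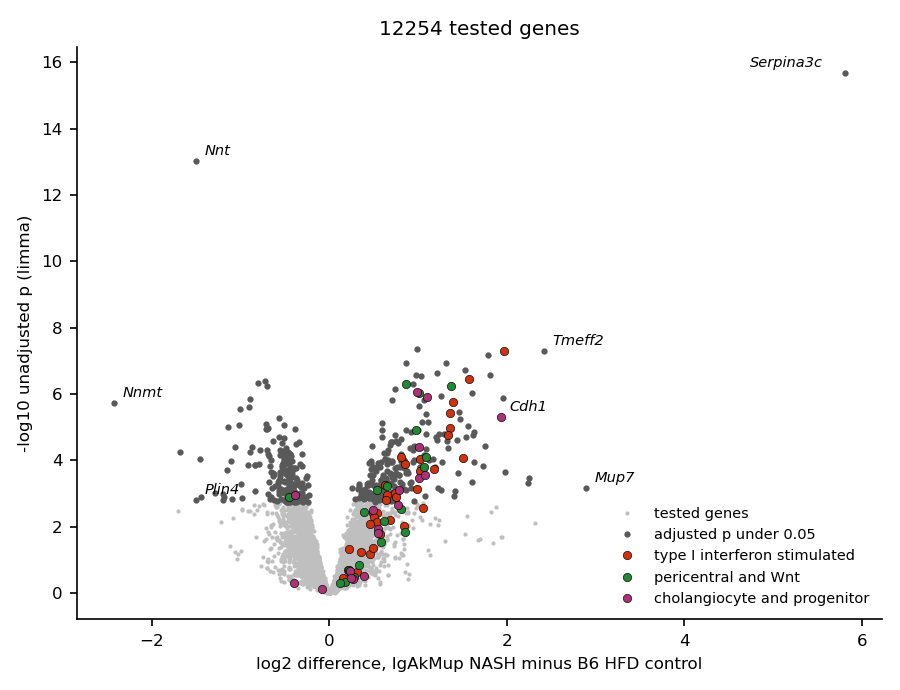
Each point is 1 of 12254 tested genes, with the log2 difference (IgAkMup NASH minus B6 HFD control) on the x axis and -log10 of the unadjusted limma p on the y axis; dark points passed an adjusted p of 0.05 and coloured points are members of 3 gene lists. Serpina3c at 5.81 and Nnt at -1.50 stand far from the other genes, and nearly all coloured points lie to the right of 0.

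The genes to which the genotype names may point were examined first. Plau, which encodes urokinase, stood at 5.58, 4.90 and 5.24 in B6 HFD control and 4.72, 5.68 and 5.66 in IgAkMup NASH. The groups overlapped and the gene did not pass the test (0.11 ± 0.24, adjusted p = 0.863). Values for Igha and the other immunoglobulin constant genes were not analysed here. Jchain, the joining chain of secreted IgA and IgM, stood at 4.81, 5.32 and 5.50 in B6 HFD control and 7.10, 6.51 and 5.81 in IgAkMup NASH, with no overlap, and was higher (1.26 ± 0.32, adjusted p = 0.0301). Pigr, the receptor that carries such antibodies across epithelia, stood at 13.25, 13.85 and 13.08 in B6 HFD control and 13.64, 13.51 and 13.62 in IgAkMup NASH and did not pass (0.19 ± 0.14, adjusted p = 0.524). Cd8a, the alpha chain of the CD8 co-receptor of cytotoxic T cells, was near the lower limit of the tested genes at 3.10, 3.33 and 3.19 in B6 HFD control and 3.75, 3.70 and 3.97 in IgAkMup NASH and was higher (0.60 ± 0.16, adjusted p = 0.0427). The call for Cd8a was lost whichever of the 6 libraries was left out, and that for Jchain in 4 of these 6 fits, with an adjusted p of up to 0.545 for Cd8a and 0.551 for Jchain over the alternatives. Cd8b1 lay under the filter on low values at 2.03, 1.78 and 2.06 against 2.34, 2.08 and 2.40. An exact two-sided permutation test of 3 against 3 cannot go below 0.1, and gave 0.1 for Jchain, Cd8a and Cd8b1 (0.167 after adjustment over 5 genes), 0.4 for Pigr and 0.8 for Plau.

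The gene that differed most was Serpina3c, a member of the serine protease inhibitor cluster at chr12:104146907-104153929 (GRCm38.p6). It stood at 3.22, 3.30 and 3.22 in B6 HFD control and 9.10, 9.08 and 8.99 in IgAkMup NASH, a difference of 5.81 ± 0.26 (SE, adjusted p = 2.58e-12), and it passed under each alternative run. The other large rises were in genes of several kinds. Mup7 and Mup21, major urinary proteins secreted by the male liver, rose by 2.89 ± 0.73 and 1.63 ± 0.29. Mup7 stood at 7.09, 8.46 and 6.52 in B6 HFD control and 10.61, 11.29 and 8.85 in IgAkMup NASH, so that the spread within groups was wide although the groups did not overlap. Mup genes are near-identical copies, and reads may be divided among them in a way the deposited values do not show. Cyp4a12b, a male-biased fatty acid hydroxylase, stood at 5.42, 6.18 and 7.05 in B6 HFD control and 7.94, 8.39 and 8.20 in IgAkMup NASH (1.96 ± 0.29, adjusted p = 0.000596), with the same caution about related copies. Cdh1, the E-cadherin of epithelial junctions, was nearly equal in all 3 IgAkMup NASH libraries at 9.02, 9.03 and 8.99 and lower and more variable in B6 HFD control at 7.10, 6.38 and 7.76 (1.93 ± 0.32, adjusted p = 0.00157).

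Several of the genes that rose most were close to the filter on low values (a mean of 3) in B6 HFD control. Tmeff2, a membrane protein with an EGF-like domain, stood at 3.36, 3.51 and 3.30 in B6 HFD control and 6.50, 5.63 and 5.29 in IgAkMup NASH (2.42 ± 0.29, adjusted p = 0.000124). Gldn, which encodes gliomedin, stood at 3.41, 3.47 and 3.34 in B6 HFD control and 5.08, 5.58 and 4.997 in IgAkMup NASH (1.81 ± 0.25, adjusted p = 0.000269). Mas1, a receptor for a short angiotensin peptide, stood at 3.63, 3.74 and 3.15 in B6 HFD control and 5.001, 5.42 and 5.47 in IgAkMup NASH (1.79 ± 0.22, adjusted p = 0.000139). In each of these genes every IgAkMup NASH library lay above every B6 HFD control library. The transmembrane protease gene Tmprss4, the calcium-binding protein gene Cib3 and the protease inhibitor gene Serpinb1a also rose, by 1.76, 1.73 and 1.98. A regularised log transformation is designed to draw low values together, and how far it did so here was not measured.

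Among genes that fell, Nnmt had the largest difference and Nnt the lowest p. Nnmt, which methylates nicotinamide, stood at 8.55, 9.85 and 10.43 in B6 HFD control and 6.92, 7.23 and 7.41 in IgAkMup NASH (-2.42 ± 0.37, adjusted p = 0.000723). Nnt, the mitochondrial transhydrogenase that makes NADPH, stood at 10.83, 10.58 and 10.73 in B6 HFD control and 9.14, 9.23 and 9.28 in IgAkMup NASH and fell by 1.50 ± 0.09 (SE, adjusted p = 5.73e-10), with a spread within groups far smaller than the difference. Plk3, a stress-responsive kinase, stood at 8.75, 8.51 and 8.71 in B6 HFD control and 7.24, 6.91 and 6.78 in IgAkMup NASH (-1.68 ± 0.33, adjusted p = 0.00652). Hspa1b, an inducible heat shock protein, stood at 6.82, 7.36 and 6.82 in B6 HFD control and 5.72, 5.55 and 5.36 in IgAkMup NASH (-1.46 ± 0.30, adjusted p = 0.00875), and reads may be shared with its near-identical copy. Slco1a4, an organic anion transporter, fell with nearly touching groups, 8.80, 8.52 and 7.46 against 6.51, 6.55 and 7.40 (-1.44 ± 0.39, adjusted p = 0.0413). Wfdc2, Arid5b, Slc25a30 and Steap2 also fell, by differences of Wfdc2 -1.19, Arid5b -1.19, Slc25a30 -1.18 and Steap2 -1.14.

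Interferon-stimulated genes formed the clearest group. Of 35 tested genes of the type I interferon list, 18 rose and none fell, and all 35 had a difference above 0, with a median of 0.69 against -0.0034 for all tested genes. The mean of the list ran from 6.75 to 6.87 over the B6 HFD control libraries and from 7.32 to 7.78 over the IgAkMup NASH libraries, and did not overlap. Apol9a, an apolipoprotein L family gene, stood at 7.43, 8.26 and 8.18 in B6 HFD control and 9.87, 10.13 and 9.79 in IgAkMup NASH (1.97 ± 0.24, adjusted p = 0.000124), and its neighbour Apol9b, which has a near-identical sequence, rose by 1.36 ± 0.22. Ifi27 stood at 9.63, 9.85 and 10.29 in B6 HFD control and 11.49, 11.79 and 11.21 in IgAkMup NASH (1.58 ± 0.22, adjusted p = 0.000317). Oasl1, an oligoadenylate synthetase-like protein that limits Irf7 translation, stood at 6.78, 6.55 and 6.44 in B6 HFD control and 7.67, 8.32 and 7.96 in IgAkMup NASH (1.39 ± 0.21, adjusted p = 0.000706). These groups were all separate.

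The rise took in sensors, effectors and regulators of the pathway. Among the sensors of foreign nucleic acid, Zbp1 stood at 5.50, 5.94 and 5.90 in B6 HFD control and 6.93, 7.32 and 7.12 in IgAkMup NASH (1.34 ± 0.24, adjusted p = 0.00329), and the RNA helicases Ddx58, Ifih1 and Dhx58 rose by 0.63, 0.65 and 0.86. Among the effectors, Isg15, a ubiquitin-like modifier, stood at 6.45, 6.70 and 6.94 in B6 HFD control and 7.51, 8.001 and 7.63 in IgAkMup NASH (1.02 ± 0.21, adjusted p = 0.00875), and Usp18, which removes that modifier, stood at 6.70, 6.84 and 6.89 in B6 HFD control and 7.47, 8.22 and 8.28 in IgAkMup NASH (1.18 ± 0.26, adjusted p = 0.0118). The antiviral genes Oas1g, Oas1a, Ifi44 and Mx2 rose by 0.81, 1.03, 1.50 and 0.74. In Ifi44, IgAkMup NASH library 2 lay between the groups at 6.25, with the other libraries at 7.32 and 7.29 and B6 HFD control at 5.56, 5.22 and 5.55. Irf7, the transcription factor that amplifies the response, stood at 8.65, 8.54 and 8.82 in B6 HFD control and 9.38, 10.03 and 9.58 in IgAkMup NASH (0.99 ± 0.25, adjusted p = 0.029). The chaperone gene Rtp4 and the genes Xaf1 and Trim30a rose by 1.37, 0.76 and 0.64. Called members numbered 6 of 35 without IgAkMup NASH library 3, 10 without library 6, and 6 when the tumours shared the spread, with medians of 0.62, 0.62 and 0.69. Apol9a, Ifi27, Oasl1, Rtp4 and Zbp1 passed in each alternative run.

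In the list of class I presentation, 5 of 15 tested genes rose, none fell and all 15 differences were above 0 (median 0.40). H2-Q7, a non-classical class I heavy chain, stood at 7.94, 8.06 and 8.08 in B6 HFD control and 8.83, 9.04 and 8.73 in IgAkMup NASH (0.84 ± 0.17, adjusted p = 0.00875). Psmb9, a subunit of the immunoproteasome, stood at 6.95, 7.13 and 6.95 in B6 HFD control and 7.58, 7.83 and 7.60 in IgAkMup NASH (0.66 ± 0.13, adjusted p = 0.00599). Nlrc5, the transactivator of class I genes, rose by 0.71 ± 0.17, and H2-T22 and H2-T23 rose by 0.47 and 0.40. Heavy-chain genes of this locus resemble one another, so their separate values are uncertain. Only 1 of 15 was called without IgAkMup NASH library 3. Among the GTPases induced by interferon gamma, 3 of 16 rose: Iigp1 (0.80), Irgm1 (0.73) and Gbp7 (0.92). None of 9 class II genes passed (median 0.22).

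**Figure D2:**
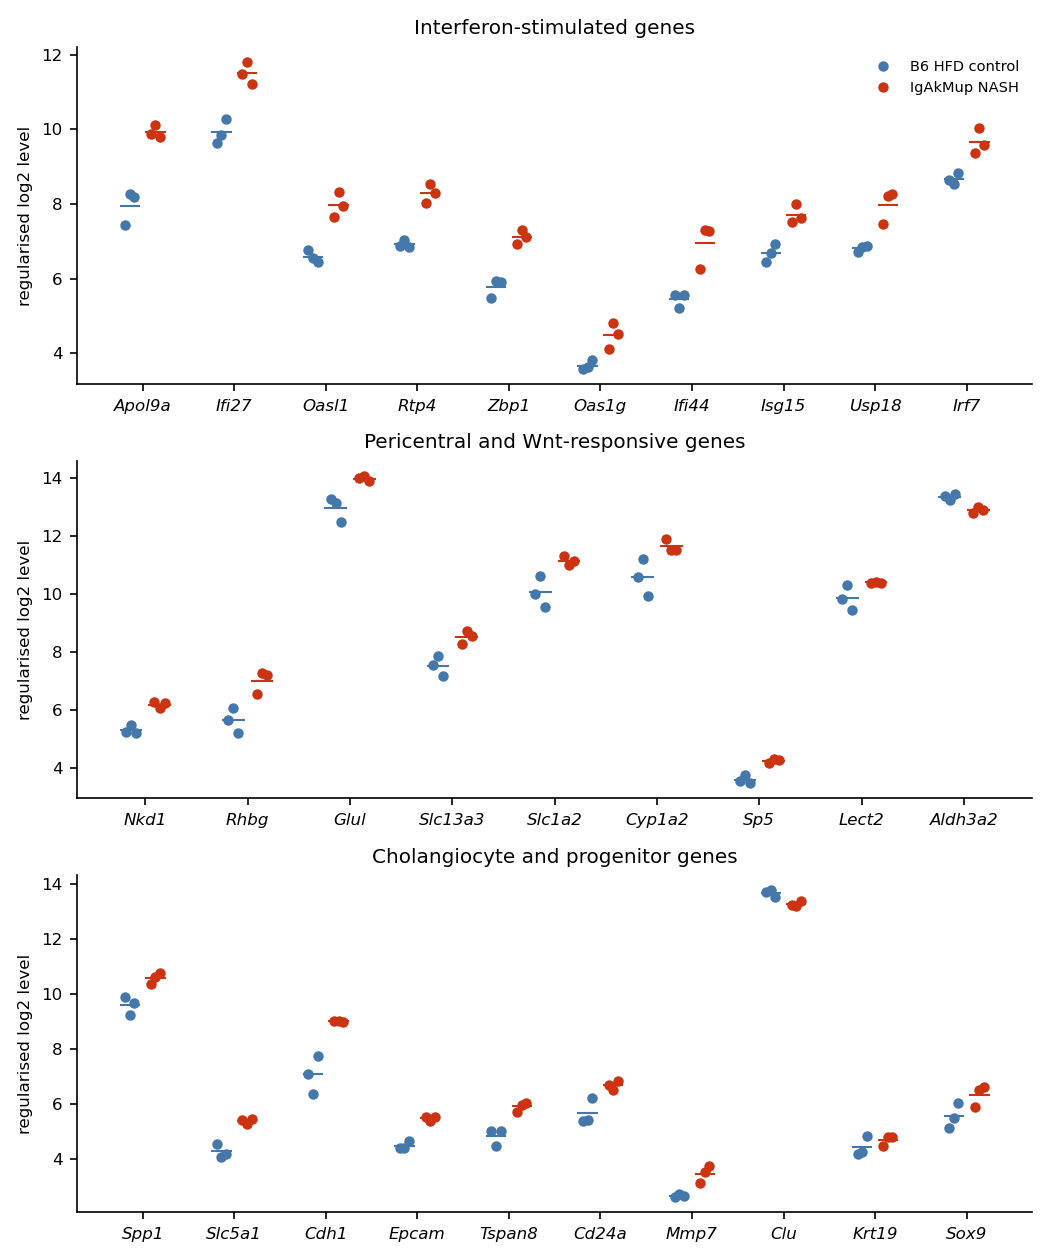
Regularised log2 level (y axis) of genes of 3 lists in each library, with 3 B6 HFD control libraries in blue and 3 IgAkMup NASH libraries in red, and group means as lines. All genes drawn except Krt19 and Sox9 were called members of their lists, so groups that are mostly separate follow from that choice. Aldh3a2 and Clu are lower in IgAkMup NASH and Krt19 overlaps. Krt19 and Sox9 did not pass the test.

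Genes of the pericentral zone and of the Wnt response were higher than in B6 HFD control. The mean of the list ran from 8.43 to 9.10 in B6 HFD control and from 9.31 to 9.44 in IgAkMup NASH. In groups with other column tags it was 8.90 to 9.35 in B6 NC and 9.42 to 9.48 in IgAkMup NC. It was 9.13 to 9.29 in IgAkCLM HFD control and 9.17 to 9.19 in MupHe NASH. IgAkMup NASH was thus not above IgAkMup NC, and B6 HFD control held the lowest library mean of these groups. Of 20 tested, 8 rose, 1 fell and 19 had a difference above 0, with a median of 0.60. Glul, which encodes glutamine synthetase and is confined to hepatocytes around the central vein, stood at 13.29, 13.15 and 12.48 in B6 HFD control and 13.99, 14.07 and 13.90 in IgAkMup NASH (1.01 ± 0.15, adjusted p = 0.000487). The 3 IgAkMup NASH libraries lay close together, and B6 HFD control library 3 was the lowest of all. Rhbg, an ammonium transporter of the same cells, stood at 5.66, 6.06 and 5.22 in B6 HFD control and 6.56, 7.30 and 7.20 in IgAkMup NASH (1.37 ± 0.20, adjusted p = 0.000355). Slc1a2, a glutamate transporter, stood at 10.02, 10.64 and 9.56 in B6 HFD control and 11.30, 11.01 and 11.16 in IgAkMup NASH (1.09 ± 0.22, adjusted p = 0.0082), and Slc13a3, a dicarboxylate transporter, rose by 0.98 ± 0.17. Nkd1, an inhibitor that Wnt signalling itself induces, stood at 5.26, 5.49 and 5.22 in B6 HFD control and 6.28, 6.07 and 6.24 in IgAkMup NASH (0.87 ± 0.12, adjusted p = 0.000338). Sp5, another Wnt target, stood at 3.54, 3.78 and 3.49 in B6 HFD control and 4.17, 4.31 and 4.29 in IgAkMup NASH (0.65 ± 0.16, adjusted p = 0.0257), and Axin2, named here after its values were seen, stood at 5.45, 5.52 and 5.48 in B6 HFD control and 5.68, 6.11 and 6.51 in IgAkMup NASH without passing (0.62 ± 0.21, adjusted p = 0.101). Lect2 and Cyp1a2 rose by 0.54 and 1.07. The exception was Aldh3a2, a fatty aldehyde dehydrogenase, which fell from 13.38, 13.25 and 13.47 to 12.82, 13.02 and 12.90 (-0.46 ± 0.12, adjusted p = 0.0403). Between 5 and 12 of the 20 genes were called when 1 library was left out, 5 when the compared libraries were fitted alone, and none when the tumours shared the spread.

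In the list of the periportal zone 1 of 18 passed, Cdh1, which the list of duct markers also holds, and the median was -0.11. Among 24 genes of the urea cycle and amino acid breakdown only Glud1, glutamate dehydrogenase, was called, and it fell (-0.51 ± 0.11, adjusted p = 0.00875, with 13.50, 13.60 and 13.62 against 13.18, 12.86 and 13.14; median of the list -0.17). Glud1 lies on chromosome 14, to which a later paragraph returns. None of 26 hepatocyte markers passed (median -0.077), and the mean of that list was 13.4 to 13.6 in B6 HFD control and 13.2 to 13.4 in IgAkMup NASH, the highest of the cell type lists.

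Markers of cholangiocytes, the cells of the bile ducts, and of progenitor cells were higher. Of 18 tested, 7 rose, 1 fell and 15 were above 0, with a median of 0.55. Spp1, osteopontin, stood at 9.90, 9.22 and 9.66 in B6 HFD control and 10.37, 10.61 and 10.76 in IgAkMup NASH (0.99 ± 0.14, adjusted p = 0.000487). Slc5a1, a sodium-glucose transporter, stood at 4.56, 4.10 and 4.19 in B6 HFD control and 5.41, 5.29 and 5.44 in IgAkMup NASH (1.10 ± 0.16, adjusted p = 0.000586), and Epcam, an epithelial adhesion molecule, at 4.42, 4.39 and 4.64 in B6 HFD control and 5.54, 5.39 and 5.54 in IgAkMup NASH (1.01 ± 0.19, adjusted p = 0.00531). Cdh1, Tspan8 and Cd24a rose by 1.93, 1.08 and 1.01. Mmp7, a matrix protease of injured ducts, stood near the filter on low values at 2.63, 2.74 and 2.68 in B6 HFD control. Its values were 3.12, 3.54 and 3.76 in IgAkMup NASH (0.79 ± 0.20, adjusted p = 0.0308). Clu, which encodes the secreted chaperone clusterin, fell (-0.38 ± 0.10, adjusted p = 0.0384) and lies on chromosome 14. Krt19, a keratin that defines duct cells, did not pass and overlapped, 4.20, 4.26 and 4.83 against 4.49, 4.82 and 4.80 (0.27 ± 0.31, adjusted p = 0.71), and nor did Sox9 (0.78 ± 0.22, adjusted p = 0.0555); both were named after their values were seen. The mean of the list ran from 5.81 to 6.11 in B6 HFD control and from 6.42 to 6.61 in IgAkMup NASH. The called members numbered 4 to 8 when 1 library was left out, 5 when the compared libraries were fitted alone and 1 when the tumours shared the spread. In bulk liver, more cells of a type and more RNA per cell cannot be told apart.

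Of 18 genes known from fetal liver and liver tumours, 4 rose, and the median was 0.53. Golm1, a Golgi membrane protein, stood at 5.87, 5.66 and 6.34 in B6 HFD control and 7.17, 7.12 and 6.85 in IgAkMup NASH (1.09 ± 0.18, adjusted p = 0.00127). Gpx2, an epithelial glutathione peroxidase, stood at 2.98, 3.16 and 3.02 in B6 HFD control and 3.82, 3.62 and 4.30 in IgAkMup NASH (0.86 ± 0.22, adjusted p = 0.0305). The other called members were Epcam and Cd24a, which the duct list holds as well. None of 31 cell division genes passed, although 27 were above 0 (median 0.22); Mki67, named after its values were seen, stood at 5.41, 5.85 and 5.72 in B6 HFD control and 6.09, 6.16 and 6.03 in IgAkMup NASH (0.43 ± 0.25, adjusted p = 0.392) and Cdk1 at 4.91, 5.02 and 5.31 in B6 HFD control and 5.60, 5.71 and 5.38 in IgAkMup NASH (0.48 ± 0.17, adjusted p = 0.134).

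Counts of called markers of immune, stellate and endothelial cells are to be read beside the 3.58% called over all tested genes. At that share lists this short hold few calls or none, so a low count says nothing particular about these cells. Of the listed genes with values, the filter on low values kept 7 of 21 for T and NK cells and 8 of 17 for B and plasma cells. It kept 5 of 15 for neutrophils and 5 of 14 for dendritic cells. Of 7 tested T and NK cell genes, Cd8a alone passed (a call lost without any 1 library, as given above), with all 7 above 0 (median 0.38), and the list mean was 3.48 to 3.92 in B6 HFD control and 3.94 to 4.07 in IgAkMup NASH. Of 8 tested B and plasma cell genes, Jchain passed, and 6 were above 0 (median 0.25). The plasma cell gene Derl3 stood at 5.17, 6.08 and 6.37 in B6 HFD control and 6.08, 6.67 and 7.34 in IgAkMup NASH. It did not pass (0.82 ± 0.28, adjusted p = 0.105). No Kupffer cell marker of 18 passed (median -0.13), and of 20 genes of recruited and lipid-associated macrophages only Spp1 did (median 0.20), a gene shared with the duct list. Among 34 stellate cell and matrix genes only Lum, a collagen-binding proteoglycan, was called and stood at 6.48, 6.25 and 6.68 in B6 HFD control and 7.12, 7.42 and 7.48 in IgAkMup NASH (0.87 ± 0.20, adjusted p = 0.0142), with a list median of 0.019. Among 24 endothelial genes only Lyve1, a hyaluronan receptor of sinusoidal and lymphatic endothelium, was called, and it fell from 7.28, 6.41 and 7.12 to 5.61, 6.29 and 5.74 (-1.06 ± 0.21, adjusted p = 0.00534). Of the erythroid list Car1 and Car2, carbonic anhydrases, rose by 0.69 and 0.69 while the median of its 8 tested genes was -0.068. No neutrophil, dendritic cell or adipocyte marker passed among 5, 5 and 9 tested. Of the immune signal genes, Il18 rose by 0.62 ± 0.17 among 21 cytokines and chemokines, and Cd276, which encodes the checkpoint ligand B7-H3, stood at 4.89, 4.61 and 4.71 in B6 HFD control and 6.10, 5.94 and 5.81 in IgAkMup NASH (1.22 ± 0.16, adjusted p = 0.000269).

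Among lipid genes, the cholesterol and droplet lists are given first, and the pathways were not tested against each other. In cholesterol synthesis 4 of 25 rose, none fell and 23 were above 0 (median 0.37), but the list means overlapped, at 8.68 to 9.58 in B6 HFD control and 9.35 to 9.68 in IgAkMup NASH. Sqle, squalene epoxidase, stood at 8.92, 6.16 and 5.68 in B6 HFD control and 9.08, 8.84 and 9.60 in IgAkMup NASH (2.25 ± 0.53, adjusted p = 0.0177). B6 HFD control library 1 stood with the IgAkMup NASH libraries for this gene, and the other 2 controls were far below. Nsdhl showed the same arrangement, 9.19, 7.82 and 7.94 against 9.46, 9.36 and 9.71 (1.19 ± 0.26, adjusted p = 0.011), and so did Msmo1, 10.14, 9.03 and 8.78 against 10.51, 10.24 and 10.85 (1.22 ± 0.31, adjusted p = 0.028). Mvk, mevalonate kinase, rose by 0.75 ± 0.20. The called members numbered 7 without B6 HFD control library 1, none without library 2, 1 without library 3, 1 without IgAkMup NASH library 3 or 6, and none when the tumours shared the spread or the compared libraries were fitted alone.

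In the lipid droplet list, which holds genes of fat storage, 2 of 16 fell, none rose and the median was -0.36, with overlapping list means of 8.52 to 9.07 in B6 HFD control and 8.19 to 8.72 in IgAkMup NASH. Plin4, a droplet coat protein, stood at 8.51, 8.18 and 7.71 in B6 HFD control and 5.73, 7.04 and 7.14 in IgAkMup NASH (-1.50 ± 0.41, adjusted p = 0.0458), and Cideb, which acts in droplet fusion and lipoprotein loading, at 11.36, 11.36 and 11.24 in B6 HFD control and 10.84, 10.57 and 10.90 in IgAkMup NASH (-0.55 ± 0.13, adjusted p = 0.0158). Cideb lies on chromosome 14. Of 22 genes of fatty acid and triglyceride synthesis, Lpin2, a phosphatidate phosphatase, fell from 12.31, 12.06 and 12.02 to 11.24, 10.83 and 11.02 (-1.10 ± 0.23, adjusted p = 0.00918); Lpin1 stood at 11.69, 11.74 and 10.67 in B6 HFD control and 9.85, 9.46 and 9.69 in IgAkMup NASH and missed the threshold (-1.70 ± 0.52, adjusted p = 0.0719). Of 30 genes of fatty acid oxidation, Acads, a short-chain acyl-CoA dehydrogenase, was called lower (-0.30) and Cyp4a31 higher (0.85), and 5 of 30 were above 0 (median -0.18).

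Among 26 P450 and drug metabolism genes 3 rose: Cyp1a2, Cyp2c70 and Cyp2c54. Cyp2c70, the mouse enzyme that makes muricholic acids, stood at 10.20, 10.79 and 10.30 in B6 HFD control and 11.23, 11.11 and 11.09 in IgAkMup NASH (0.71 ± 0.17, adjusted p = 0.018). Cyp2c54 varied widely within B6 HFD control, 7.93, 10.43 and 6.38 against 10.70, 10.26 and 10.51, with overlapping groups (2.24 ± 0.54, adjusted p = 0.0222). In the list of male-biased genes kept up by growth hormone pulses, 3 of 29 rose and the median was 0.53. The list mean was 8.83 to 9.28 in B6 HFD control and 9.36 to 9.82 in IgAkMup NASH. Both lay below B6 NC (10.66 to 11.18) and IgAkMup NC (10.20 to 10.92), which differ from them in column tag and in being off HFD. The other HFD groups, with Tri and N tags, were also lower than these NC groups. They stood at 9.11 to 9.525 in IgAkCLM HFD control and 9.02 to 9.90 in MupHe NASH. Between the NC groups the median difference was -0.28, with 2 genes lower and 0 higher in IgAkMup NC. Calls in the stress lists were not set apart from the 3.58% called over all tested genes. Herpud1, of the unfolded protein response, fell from 12.66, 13.37 and 13.34 to 12.42, 12.04 and 11.95 (-0.98 ± 0.27, adjusted p = 0.042), as 1 of 25 tested, and Chac1, of the integrated stress response, from 6.53, 6.86 and 6.01 to 5.59, 5.11 and 4.87 (-1.28 ± 0.33, adjusted p = 0.0346), as 1 of 23. None of 20 p53 targets passed (median -0.11). Single members passed among 27 acute phase genes (Orm1, 0.76), 41 of complement and coagulation (F11, 0.64), 18 of iron handling (Hfe, -0.29) and 16 of the urokinase system (Serpine2, -0.83). In all, 31 of the 47 lists held a called member and 16 held none. A longer list is likelier to hold a call at the share of all tested genes, so these counts describe the lists only.

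**Figure D3:**
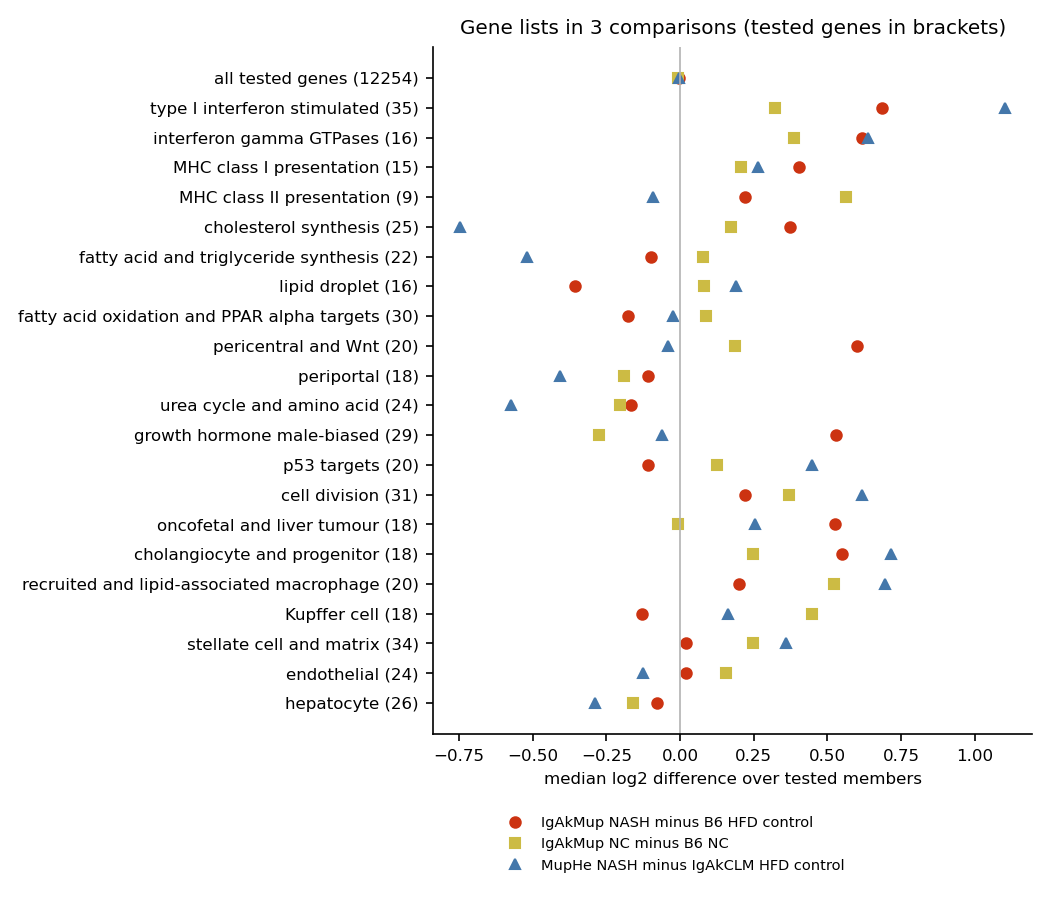
Median log2 difference (x axis) over the tested members of 21 gene lists and over all tested genes, in IgAkMup NASH minus B6 HFD control (red circles), IgAkMup NC minus B6 NC (yellow squares) and MupHe NASH minus IgAkCLM HFD control (blue triangles). The interferon list lies right of 0 in all 3, cholesterol synthesis at 0.37, 0.17 and -0.75, and the pericentral list at 0.60, 0.19 and -0.042.

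In healthy NC livers, the same genotypes differed in 450 genes (3.67% of those tested), of which 314 were higher (2.56%) and 136 lower (1.11%) in IgAkMup NC. This comparison shares no library with the HFD comparison, but the fit gives each gene the same spread in both. The processing notes name partly different tools for NC and HFD livers, and each comparison stays within one of these sets. Of the 439 genes called on HFD, 92 were called in the same direction in NC livers, which is 21.0% of the HFD calls and 20.4% of the NC calls, and 1 was called in the opposite direction. Of the genes that rose on HFD, 217 of 251 also had a positive difference in NC, and of those that fell 154 of 188 a negative one, against 48.8% and 51.2% of all tested genes. Off chromosome 14 it was 91 of the 124 that fell. Serpina3c differed by 5.64 in NC, Tmeff2 by 2.42, Gldn by 1.89, Rhbg by 1.51, Spp1 by 1.04 and Nnt by -1.22, all called. Of the interferon list 3 of 35 were called in NC (median 0.32), of the pericentral list 3 of 20 (0.19) and of the duct list 2 of 18 (0.25).

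The difference between the HFD and the NC comparison was tested gene by gene. No gene passed an adjusted p of 0.05 by limma, with 1370 genes at an unadjusted p under 0.05 (11.2%). With quantile normalization 8 genes passed, and without B6 HFD control library 2, 73 did. A count of 0 does not show that the genotypes differ alike on both diets. The 6 genes with the lowest p among those with a more positive difference on HFD had adjusted p of 0.069 to 0.11. Mup21 differed by 1.63 on HFD and -0.61 in NC, Nkd1 by 0.87 and -0.07, Slc5a1 by 1.10 and -0.07, Serpine2 by -0.83 and -2.46, Car8 by 0.36 and -0.26, and Srsf5 by 0.65 and -0.19. On the other side stood Susd6 (-0.39 and 0.39), Abcd2 (0.15 and 1.91), Kcnj10 (-0.49 and 0.72), Tbc1d9 (-0.23 and 0.68), Serpina3m (0.16 and 1.71) and Aldh3a2 (-0.46 and 0.40), each at an adjusted p of 0.069 for the difference.

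The other comparison of NASH with HFD control, MupHe NASH minus IgAkCLM HFD control, gave 916 genes (7.48%), 491 higher (4.01%) and 425 lower (3.47%). It also shares no library with the present one, but the fit gives each gene the same spread in both. Genotype and stage change together in it too. Of the 439 genes, 125 were called in the same direction there, 28.5% of the present calls and 13.6% of the others, and 13 in the opposite direction. In it 33 of 35 interferon-list genes rose (median 1.10), among them Ifi44 by 2.13, Usp18 by 1.84 and Isg15 by 1.52. Against the same comparison, the test of the difference called no interferon-list gene. In all, 67 genes passed that test (44 with a more positive difference in IgAkMup NASH minus B6 HFD control, 23 more negative; 0.547%). The count ran from 17 to 321 when 1 library was left out and was 7 when the tumours shared the spread.

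**Figure D4:**
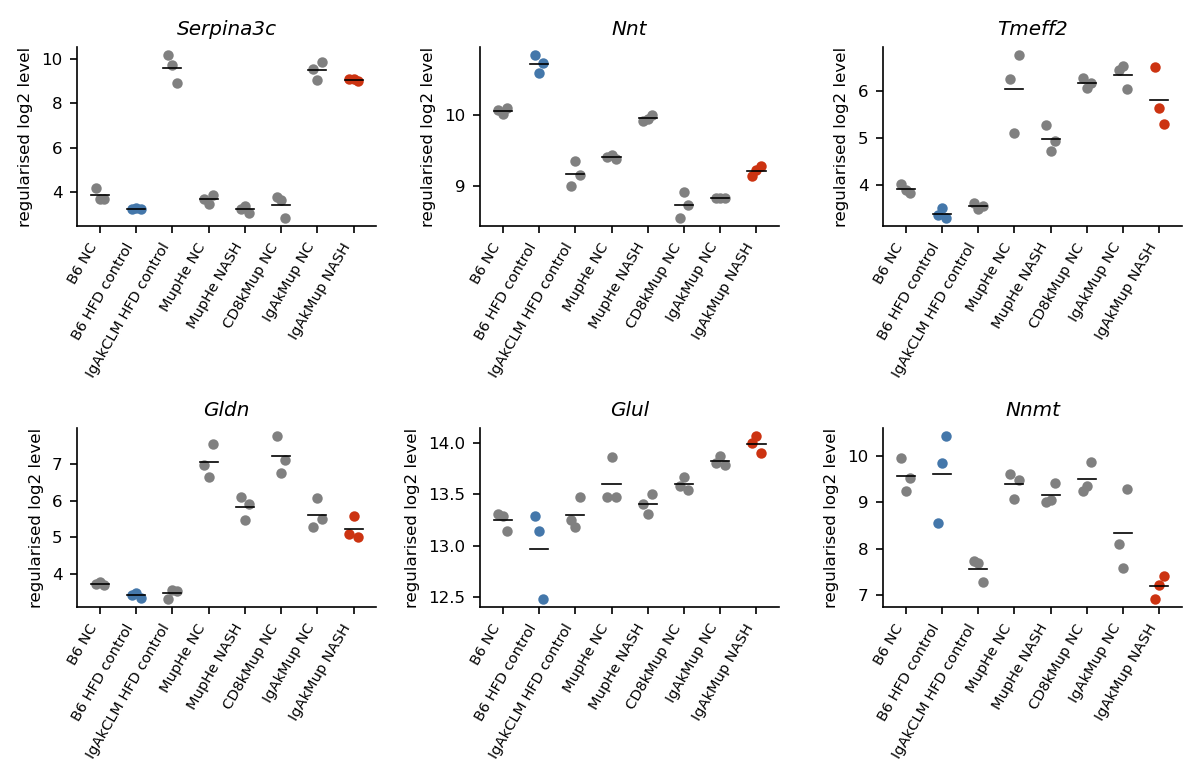
Regularised log2 level (y axis) of 6 genes in each of 3 libraries of 8 liver groups (x axis), with B6 HFD control in blue, IgAkMup NASH in red, the other groups in grey and group means as lines. Serpina3c is near 9 in the 3 groups with IgAk in the name and near 3 to 4 in the others, and Tmeff2 and Gldn are low in the 3 groups without Mup in the name.

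Among those 67 were 5 of 25 cholesterol synthesis genes, each with a more positive difference here. Nsdhl and Mvk were called in opposite directions, while Msmo1 was called here only and Tm7sf2 there only. Nsdhl differed by 1.19 here and -1.13 there, Mvk by 0.75 and -0.69, Msmo1 by 1.22 and -0.90 and Tm7sf2 by 0.44 and -1.04. In the other comparison 11 of 25 fell. Of the pericentral list, 4 genes passed with a more positive difference here and 1 (Aldh3a2) with a more negative one, with Slc1a2 at 1.09 and -0.51 and Cyp1a2 at 1.07 and -0.58. Nnt, at -1.50 and 0.78, and Nnmt, at -2.42 and 1.60, were more negative, as were P4ha1, a collagen prolyl hydroxylase subunit (-0.999 and 0.31), and Gdf15, a stress hormone (-0.81 and 1.05). IgAkCLM stands on the control side of that comparison and IgAkMup on the NASH side of this one, so genes that follow IgAk in the name take opposite signs.

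Serpina3c was such a gene. Over the livers it was 8.99 to 9.10 in IgAkMup NASH, 9.08 to 9.85 in IgAkMup NC and 8.94 to 10.18 in IgAkCLM HFD control, and 3.22 to 3.30 in B6 HFD control, 3.68 to 4.20 in B6 NC, 3.07 to 3.39 in MupHe NASH, 3.46 to 3.87 in MupHe NC and 2.84 to 3.76 in CD8kMup NC. It was the 1 gene of 12254 in which all 9 livers with IgAk in the genotype name lay apart from the other 15. By the same count, 37 genes (0.302%) set the 15 livers with Mup in the name apart from the 9 without, and 35 of them were among the 439 called genes, 27 higher and 8 lower. Tmeff2, Gldn, Mas1, Cib3, Tmprss4, Apol9a, Rhbg, Lum and Car2 were among those that rose, and Serpine2 and Steap2 among those that fell. IgAkMup NASH alone lay apart from the other 21 livers in 200 genes (1.63% of those tested), 41 of them called. Glul, Spp1, H2-Q7 and Psmb9 were of this kind. B6 HFD control alone lay apart in 362 genes (2.95%), 97 of them called, and these included Nnt, Nkd1, P4ha1 and Hspa1b. Genes of each such pattern have groups that do not overlap in the comparison itself, so the calls among them partly follow from the selection. These patterns were looked up after the values were seen and have no test.

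Genes on chromosome 14 were lower as a set, which was also noticed after the values were seen and has no test; the genes named for it were picked then. Of 407 tested there, 64 fell and 2 rose, so that 16.2% were called against 0.938 to 4.41% on the other chromosomes. The median difference was -0.25, against -0.024 to 0.036 for the others. Genes all along the chromosome were lower, with medians of -0.20 to -0.27 in successive stretches of 25 Mb up to 100 Mb and -0.29 over the 33 genes from 100 to 125 Mb. Pcca, a subunit of propionyl-CoA carboxylase, stood at 9.86, 9.92 and 9.95 in B6 HFD control and 9.15, 9.13 and 9.28 in IgAkMup NASH (-0.72 ± 0.10, adjusted p = 0.000338). Clybl, a mitochondrial citramalyl-CoA lyase, stood at 9.02, 8.95 and 8.92 in B6 HFD control and 8.32, 7.99 and 8.18 in IgAkMup NASH (-0.80 ± 0.11, adjusted p = 0.000338), and Sucla2, a subunit of succinyl-CoA ligase, at 10.57, 10.60 and 10.60 in B6 HFD control and 10.07, 9.84 and 10.16 in IgAkMup NASH (-0.57 ± 0.10, adjusted p = 0.00354). Oxa1l, which inserts proteins into the inner mitochondrial membrane, fell from 8.54, 8.47 and 8.44 to 8.02, 7.90 and 8.005 (-0.51 ± 0.09, adjusted p = 0.0023). Glud1, Cideb, Clu and Slc25a30, described above, are on this chromosome too. The genes there that rose were Scara3, a scavenger receptor (1.32 ± 0.17, adjusted p = 0.000184), and Sftpd, the collectin surfactant protein D (1.11 ± 0.19, adjusted p = 0.00197). Off chromosome 14, 370 of 11816 genes were called, 124 of them lower.

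The size of this shift differed between libraries. The median deviation of chromosome 14 genes from their mean over the 24 livers was 0.063, 0.076 and 0.11 in B6 HFD control and -0.16, -0.24 and -0.071 in IgAkMup NASH, with library 3 the lowest of all livers. The 9 livers without Mup in the name ran from 0.063 to 0.13 and the 15 with it from -0.24 to 0.045, with no overlap. In IgAkMup NC minus B6 NC the median for the chromosome was -0.20 and 40 of its 45 called genes fell, and in MupHe NASH minus IgAkCLM HFD control it was -0.10 with 21 of 33 called genes lower. In that comparison 8.11% of the chromosome's genes were called, near the 7.48% of all tested genes, and in NC 11.1% against 3.67%. Called genes on the chromosome numbered 17 (14 lower) without IgAkMup NASH library 3, with a median of -0.19, 18 when the compared libraries were fitted alone, 131 with library weights and none when the tumours shared the spread.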

How the data were processed

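RNA from livers was measured as polyadenylated RNA libraries. The authors deposited 1 table of regularised log2 (rlog2) levels for 24511 genes, from -2.39 to 20.9; total counts are not in it, so the depth per library is unknown. For HFD livers the tools named are Cuffdiff and STAR, and for NC livers HOMER, DESeq2 and STAR, all with build mm10, per the submitters' processing notes. Which tool made the table, and each tool's role and version, is not given in the sources used here. Of 41 columns, 35 were matched to groups by name and 6 that fit more than 1 group were not used.

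limma 3.58.1 in R 4.3.3 was fitted with a mean per group to 24 livers in 8 groups (16 residual degrees of freedom), eBayes with trend, two-sided, with Benjamini-Hochberg adjustment over the 12254 genes with a mean of at least 3. Tumours were left out because they vary more (median SD within groups 0.233 against 0.126), knowing from an earlier fit that including them gave fewer calls. Members, lists and tests were chosen with earlier results of these data known. Genes named are the 12 highest and 12 lowest called genes with groups that do not overlap, members of lists that were called or had the lowest p, genes of the genotype names and the 6 lowest p each way in each test of a difference; others are said to be chosen after their values were seen. A result for 1 named gene is not reported here. A further 15 called genes are predicted genes and are not named. Positions and promoters are from RefSeq, GRCm38.p6; 99.7% of tested genes had a position. The model was also run on simulated data with independent normal noise for each gene. Such data hold no shifts shared by genes of a library, so that run does not bear on how stable the calls are.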

Additional observations from a re-analysis of the deposited data

Results flagged for a closer look

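For 25 of the genes named, the difference between IgAkMup NASH and B6 HFD control departed from that between MupHe NASH and IgAkCLM HFD control by a test of the difference itself (limma, adjusted p under 0.05). The values that follow are the first difference minus the second, in log2. Of the serine protease inhibitors, Serpina3c was at 12.21, Serpina11 at 2.41 and Serpina1d at -1.95; these genes lie in 1 cluster on chromosome 12 and some are close copies. More positive among cholesterol synthesis genes were Nsdhl 2.33, Msmo1 2.12, Tm7sf2 1.48 and Mvk 1.44. Single genes with a more positive difference were Fdx1 1.14, Cyp27a1 1.01, Akr1d1 1.05, Papss1 1.43, Il18 1.28, F11 1.08 and Apoc3 0.92. Of pericentral and Wnt genes, Cyp1a2 was at 1.65, Slc1a2 at 1.59, Nkd1 at 0.84 and Aldh3a2 at -0.79.

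Single genes with a more negative difference were led by Nnmt at -4.02. Cdkn1a, the p53-induced cell cycle inhibitor, was at -2.54, Nnt at -2.28, Gdf15 at -1.86, Lyve1 at -1.42, P4ha1 at -1.31 and Tymp, a thymidine phosphorylase, at -1.24. Genotypes differ on both sides of both comparisons, so genotype and stage cannot be told apart in these values.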

How the results depend on the processing

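The 439 called genes became 31 when all 11 groups with tumours shared the spread, 158 when the compared groups were fitted alone, 849 with library weights, and 148 to 495 when 1 library was left out; without IgAkMup NASH library 3, 145 of 148 were among the 439. With the 4 HFD groups, no trend, no filter, a mean of at least 5, median centring or quantile normalization it was 313 to 458. The 67 genes whose difference departed from MupHe NASH minus IgAkCLM HFD control became 7 with all groups, 12 with the compared groups alone, 188 with library weights, 32 with no filter and 17 to 321 when 1 library was left out (321 without B6 HFD control library 2, 184 without IgAkCLM library 3). The 0 genes that departed from the NC comparison became 8 with quantile normalization and 0 to 73 when 1 library was left out (73 without B6 HFD control library 2). The cause was not tested. Of 114 named genes that were called, 49 passed whichever library was left out, 16 with all groups and 14 in every setting run. When 1 library was left out, Plau ran from -0.057 (without B6 HFD control library 2; also negative without IgAkMup NASH library 3 or 6) to 0.43 and Serpina3m from -0.062 (without B6 HFD control library 3) to 0.33, and neither was called. The calls of Cd8a, Cyp4a31 and Hfe were lost whichever library was left out, and those of Wfdc2, Slc25a30, Xaf1, H2-T23, Msmo1, Mvk, Cyp2c54, Lect2, Aldh3a2, Mmp7 and Susd6 in 5 of the 6 fits. List and chromosome counts under these settings were added after the data were seen. No paired analysis was possible because the column numbers of the HFD groups are not tied to labelled replicates. Regularised values give no depth, so genes near the filter on low values cannot be given a detection limit.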

Other observations

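The 3 comparisons share no library, but the fit gives each gene the same spread in all of them. Each also sets a genotype with Mup in the name against one without, so their calls are not independent. They called 3.58%, 3.67% and 7.48% of tested genes. Of the 12254 tested, 45 genes were called in the same direction in all 3. Those not described above include Mlkl, the executioner of necroptosis, which stood at 6.26, 6.05 and 6.13 in B6 HFD control and 6.80, 7.27 and 7.10 in IgAkMup NASH and differed by 0.91, 1.31 and 1.17 in IgAkMup NASH against B6 HFD control, IgAkMup NC against B6 NC and MupHe NASH against IgAkCLM HFD control. Ucp2, a mitochondrial carrier, differed by 0.94, 1.17 and 0.66, and Vtcn1, which encodes the checkpoint ligand B7-H4, by 0.98, 0.78 and 0.62. Vtcn1 was near the filter on low values at 3.10, 3.20 and 3.07 in B6 HFD control and stood at 4.06, 4.22 and 4.04 in IgAkMup NASH. Both Mlkl and Vtcn1 were among the genes that set livers with Mup in the genotype name apart from those without. These genes were picked after their values were seen.

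Other genes of chromosome 14, also picked after their values were seen, fell by small amounts. Rabggta, a subunit of the Rab prenylating enzyme, stood at 7.77, 7.92 and 7.55 in B6 HFD control and 7.30, 7.12 and 7.29 in IgAkMup NASH (-0.51 ± 0.09, adjusted p = 0.0036) and was the one gene of the chromosome called lower in all 3 comparisons. Dcaf11, Xpo7, Cdadc1, Ubac2 and Fndc3a differed by Dcaf11 -0.56, Xpo7 -0.53, Cdadc1 -0.55, Ubac2 -0.56 and Fndc3a -0.72, each with separate groups.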
